A study of Mus musculus with 4 samples.

Results

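The angiopoietins and the Tie receptors were followed across the stromal, endothelial and blood cells of mouse tibial bone marrow. The group held 5 genes of the 31053 features in the count tables, chosen by symbol, and all 5 were found: the ligand genes Angpt1 and Angpt2, the receptor genes Tek and Tie1, and the angiopoietin-like gene Angptl1. The study has 4 libraries of single cells, 1 per group. The non-irradiated control library came from Vegfc flox/flox mice and the non-irradiated Vegfc-deleted library from Rosa26-CreERT2; Vegfc flox/flox mice, whose tamoxifen-dependent Cre is driven from Rosa26 and so is not limited to 1 cell type. The irradiated control and irradiated Vegfc-deleted libraries came from the same genotypes, sampled 7 days after 4 Gy to the whole body. All mice were of the C57Bl/6JCrl strain, were 7 to 8 weeks old when 5 doses of tamoxifen were given by gavage, and irradiation followed 2 weeks later. The labels name tamoxifen for samples 1 to 3 in 1 sentence and for both genotypes in the next, and they count 3 irradiated mice per genotype. Cells of 3 mice were pooled in each non-irradiated library and of 2 mice in each irradiated library. The sort kept live cells that lacked CD45, Ter119 and other blood lineage markers.

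Angiopoietin-1 is a secreted ligand that activates Tek (Tie2), a receptor tyrosine kinase of endothelial cells, and keeps vessels quiescent and their junctions closed. Angiopoietin-2 binds the same receptor but is a weak or context-dependent agonist, released by activated endothelium and linked to vessel remodelling. Tie1 is a close relative of Tek that binds no angiopoietin strongly and modulates Tek signalling. In marrow, LepR+ perivascular stromal cells and megakaryocytes are known sources of Angpt1, and sinusoidal endothelium carries both receptors. Angptl1 shares the angiopoietin domain structure but is not a Tek ligand.

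In the GRCm38 annotation (GENCODE M21), Angpt1 lies on chromosome 15 (42424723-42676977, minus strand), Angpt2 on chromosome 8 (18690263-18741562, minus strand), Tek on chromosome 4 (94739289-94874976, plus strand), Tie1 on chromosome 4 (118471191-118490061, minus strand) and Angptl1 on chromosome 1 (156838562-156861078, plus strand). Angpt2 lies inside Mcph1 and Angptl1 inside Ralgps2, each on the opposite strand, and Angpt1 overlaps the antisense gene Gm17473. The sources used here do not say whether the counting used strand, so it is not known here whether reads of such pairs were told apart.

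RefSeq sequences of the region before the start (build GRCm38.p6) matched 3 of the 5 genes by symbol. Those of the 2 receptor genes are shown because these genes shared 1 cell class in all 4 libraries. Only bases that lie before the first base of the GENCODE gene are printed, 250 for Tek (chr4:94739039-94739288, plus strand) and 38 for Tie1 (chr4:118490062-118490099, minus strand). Capitals mark GGAA on either strand (TTCC in the printed strand), the core that ETS transcription factors bind.
Tek: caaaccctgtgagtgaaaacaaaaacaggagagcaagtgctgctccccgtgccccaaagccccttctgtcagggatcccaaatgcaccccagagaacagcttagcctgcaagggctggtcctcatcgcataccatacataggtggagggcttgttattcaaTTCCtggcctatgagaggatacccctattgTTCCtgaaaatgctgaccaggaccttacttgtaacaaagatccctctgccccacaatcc
Tie1: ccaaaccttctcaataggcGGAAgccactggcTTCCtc
Both stretches held 2 matches. For background, windows of the same lengths were cut from the first bases of each of 32851 promoter entries. These windows need not lie directly before a gene's start. At least 1 match was held by 93.4% in a window of the Tek length and by 33.3% in a window of the Tie1 length, and 76.8% and 6.02% held 2 or more. A match is a description of the letters and no evidence of binding.

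After filtering, 3837 to 5211 cells per library remained, with a median of 7636 to 9874 unique molecular identifiers (UMIs, counted molecules) per cell. Library pairs shared 13 to 117 cell barcodes, of which 3 to 21 were kept cells in both. Clusters were named from fixed marker lists, so a class is LepR+ stromal-like or endothelial-like, written below without "like". All 10 LepR+ stromal and all 10 pan-endothelial markers had counts in their own class in all 4 libraries. The same lists gave the names, so this is no independent check of them. In each set of 4 values below, the pair without irradiation comes first, and control precedes Vegfc-deleted within a pair. The LepR+ stromal class held 1137, 730, 459 and 186 cells and the endothelial class 318, 384, 1618 and 757 cells. Most non-irradiated LepR+ cells were in 1 cluster (993 and 590 cells) and most irradiated ones in another (410 and 169 cells), and sinusoidal endothelium divided in the same way (291 and 325 cells against 1413 and 668). The targeted gene Vegfc, measured in LepR+ cells, stood at 171, 18.0, 175 and 23.6 CPM (counts of a gene per 1000000 UMIs of the class), low in both Vegfc-deleted libraries. Erythroid marker RNA in the endothelial class summed to 6221, 6548, 872 and 217 CPM and in the LepR+ class to 7770, 8278, 1832 and 2640 CPM, all 8 markers being detected. Neutrophil marker RNA summed to 145, 480, 128 and 2157 CPM in the endothelial class and to 131, 427, 156 and 2535 CPM in the LepR+ class, with 8 of 8 markers detected except Elane in irradiated control LepR+ cells. On this list the irradiated Vegfc-deleted library stood apart. The part of this foreign RNA in the ratios below was not tested.

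With 1 library per group no test between groups was possible. A level below is the CPM of a gene in the summed counts of a class, and a difference is a log2 ratio of 2 levels. Brackets hold 95% intervals that cover counting error only, and not the spread between mice. A ratio past 1.5-fold with at least 30 counts in either library is called higher or lower, and the share of all measured features past that fold is given as background. The comparisons share libraries, so their values are set side by side only.

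Angpt1, the main Tek agonist, was found in LepR+ stromal cells and in megakaryocytes, and in LepR+ cells it stood higher in both irradiated libraries. Its level in LepR+ cells was 227 [218 to 236], 240 [227 to 252], 666 [642 to 690] and 492 [457 to 530] CPM. The 2 non-irradiated libraries had overlapping intervals, and both irradiated ones lay above them. The log2 ratio of irradiated to non-irradiated cells was 1.55 [1.47 to 1.63] in controls and 1.04 [0.91 to 1.17] with Vegfc deleted. With Vegfc deleted, the level was 0.43 log2 units below control after irradiation (log2 ratio -0.43 [-0.56 to -0.32]) and 0.08 [-0.02 to 0.17] above it without irradiation. Neither genotype ratio reached 1.5-fold. An unnamed cluster scored only 0.52 higher on the osteolineage list than on the LepR+ list, under the naming margin of 1.5. In that cluster, outside the class, Angpt1 was lower in both irradiated libraries, with values given under the flagged results. Where a class name needed 2 of its markers among the leading genes of a cluster, the cluster of most irradiated LepR+ cells lost its name, only 49 and 17 irradiated cells remained, and the irradiation log2 ratio in controls was 0.34, under 1.5-fold. The genotype ratio after irradiation was then 0.45, the opposite direction. The irradiated cells left by this rule lay in clusters of mostly non-irradiated cells. These held 22 and 8 irradiated beside 993 and 590 non-irradiated cells, and 27 and 9 beside 132 and 126. The rule thus kept irradiated cells that clustered with non-irradiated ones, and whether this made the irradiation ratio smaller was not tested.

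More LepR+ cells carried Angpt1, and those cells carried more of it. An Angpt1 UMI was found in 72.4%, 68.8%, 86.5% and 74.2% of LepR+ cells at median depths of 9115, 8475, 9320 and 6669.5 UMIs. In erythroid cells, which serve as background, the share was 1.14%, 1.31%, 0.196% and 0 of 340 cells (which allows up to 0.882%), at median depths of 6949, 8027, 8663 and 7023 UMIs. After each cell was thinned to 1500 UMIs, 25.1%, 26.0%, 57.8% and 46.1% of LepR+ cells had an Angpt1 UMI. Cells with 3 or more Angpt1 UMIs at that depth made up 0.626%, 1.43%, 8.53% and 6.49%. Thinning left out 18, 30, 37 and 32 shallower cells. Within the cluster that held most irradiated LepR+ cells, Angpt1 stood at 690 and 498 CPM in the irradiated libraries, and at 285 CPM in the 22 irradiated control cells of the other main cluster. Pf4, a megakaryocyte gene, was at 15.9, 18.3, 62.4 and 7.63 CPM in LepR+ cells.

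**Figure D1:**
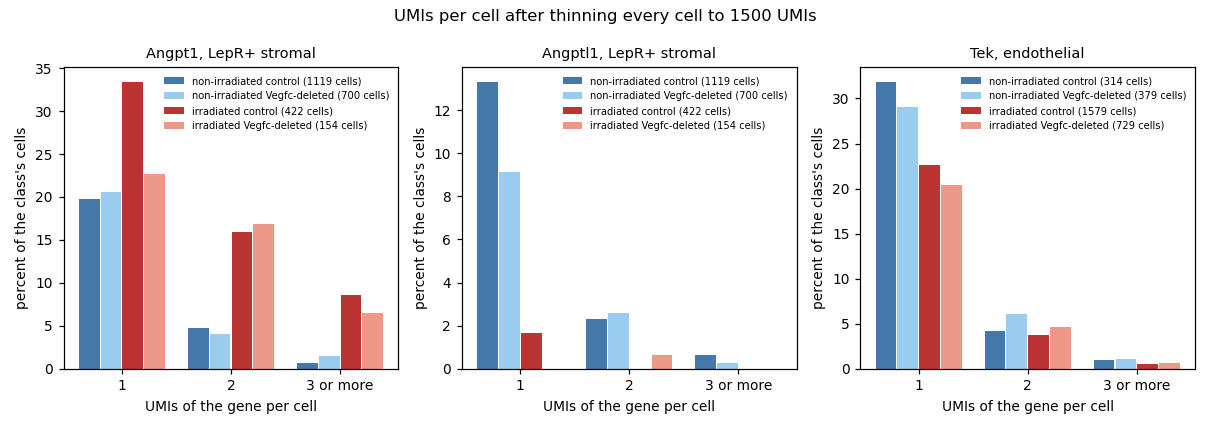
Percent of cells (vertical axis) with 1, 2 or at least 3 UMIs of Angpt1 or Angptl1 in LepR+ stromal cells, and of Tek in endothelial cells, after every cell was thinned to 1500 UMIs; bars are the 4 libraries. Cells with 3 or more Angpt1 UMIs were 0.626% and 1.43% of the non-irradiated and 8.53% and 6.49% of the irradiated LepR+ cells.

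Megakaryocytes, the platelet-forming cells, moved the other way. Their Angpt1 level was 324 [289 to 361], 285 [253 to 320], 84.2 [70.4 to 99.9] and 126 [90.4 to 170] CPM. Both irradiated libraries lay below both non-irradiated ones, with log2 ratios of -1.94 [-2.25 to -1.64] in controls and -1.17 [-1.69 to -0.72] with Vegfc deleted. The share of megakaryocytes with an Angpt1 UMI was 59.9%, 60.0%, 20.1% and 22.7%, at median depths of 2826.5, 2615, 4400 and 4179 UMIs. The last library held 44 such cells, under the 50 set as a minimum. Pf4, a platelet granule chemokine that marks the class, stood at 18278, 18774, 17135 and 39492 CPM. The 8 erythroid markers, of which Klf1 was at 0 in the last library, summed to 13377, 12915, 5446 and 3797 CPM in megakaryocytes, lower in both irradiated libraries like Angpt1, and their part in the ratios was not tested. Angpt1 in erythroid cells themselves was at most 1.02 CPM. Cxcl12, the most abundant of the LepR+ markers followed one by one, was at 155, 94.2, 74.6 and 14.9 CPM in megakaryocytes, against 15968 to 24910 CPM in LepR+ cells.

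Basophils and mast cells were a further site of Angpt1, at 76.5, 78.6, 64.1 and 111 CPM, with overlapping intervals. Only the non-irradiated control library held more than 35 of these cells (216). Endothelial cells had 1.90, 1.57, 2.27 and 1.59 CPM of Angpt1, and erythroid cells 0.977, 1.02, 0.193 and 0 CPM. A cluster of neutrophil precursors led by Elane, Prtn3 and Mpo had 17.7 CPM, of which 122 of 169 UMIs came from the non-irradiated Vegfc-deleted library. LepR+ cells held 74.7%, 71.3%, 83.5% and 75.3% of all Angpt1 UMIs in kept cells, and megakaryocytes 10.1%, 13.8%, 3.70% and 4.45%. These shares depend on how many cells of each class were sorted and captured.

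**Figure D2:**
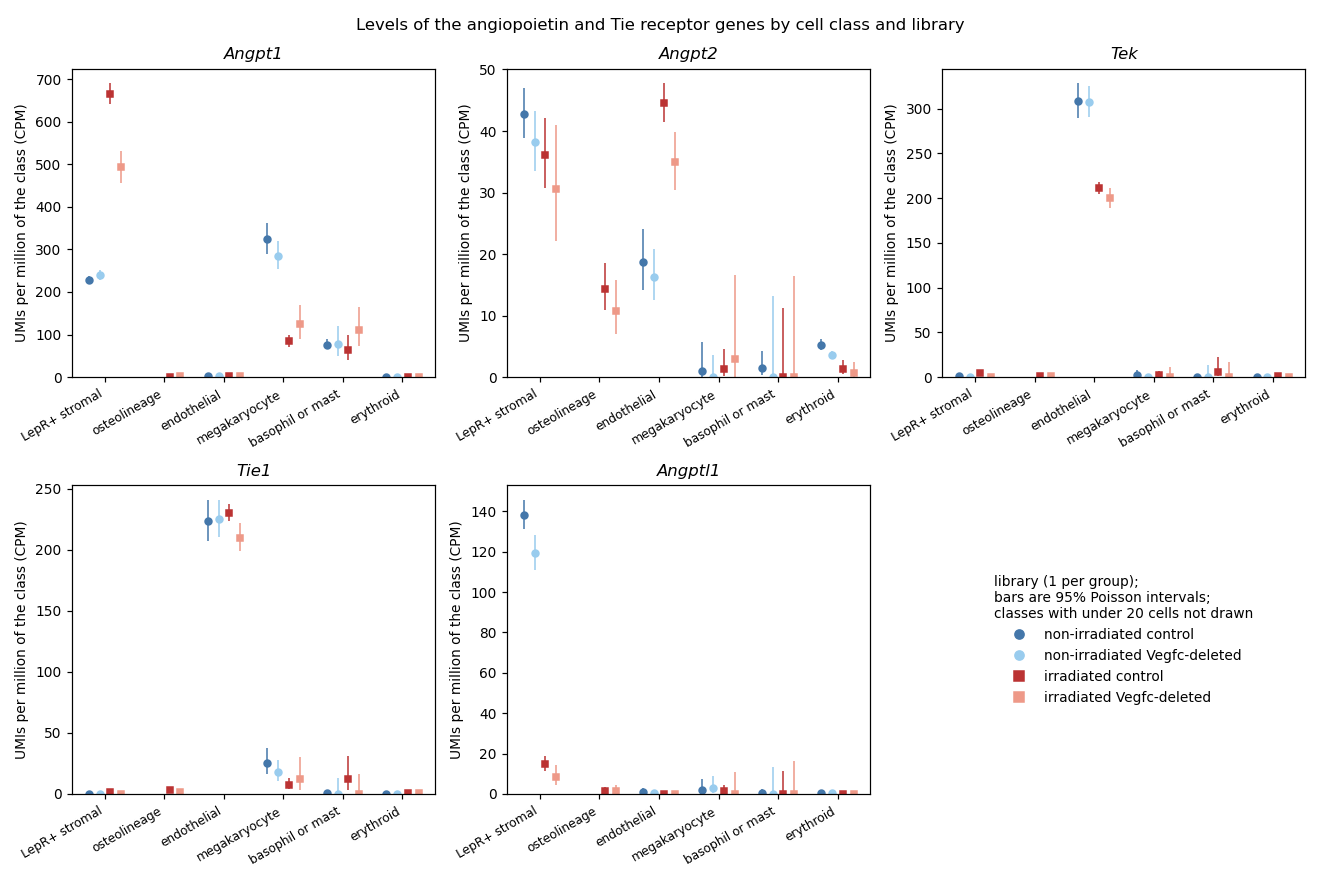
Level of each gene (CPM, linear axis from 0) in 6 cell classes and the 4 libraries, with 95% Poisson intervals; classes under 20 cells in a library are not drawn. Angpt1 is high in LepR+ stromal cells and megakaryocytes, which lie on opposite sides after irradiation. Among the classes drawn, which leave out pericytes, Tek and Tie1 are almost limited to endothelial cells.

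Angpt2 was measured in LepR+ and in endothelial cells, and stood higher after irradiation in the endothelial class. Its endothelial level was 18.7 [14.2 to 24.1], 16.3 [12.5 to 20.8], 44.5 [41.5 to 47.8] and 34.9 [30.4 to 39.9] CPM. The irradiated and non-irradiated intervals did not overlap in either genotype. The log2 ratio to non-irradiated cells was 1.24 [0.87 to 1.66] in controls and 1.09 [0.69 to 1.53] with Vegfc deleted. After irradiation the Vegfc-deleted library was lower (log2 ratio -0.35 [-0.57 to -0.13]), and without irradiation the ratio was -0.20 [-0.74 to 0.34]. Angpt2 UMIs were found in 14.2%, 12.2%, 28.6% and 17.4% of endothelial cells, against 6.20%, 4.31%, 1.37% and 0.588% of erythroid cells. After thinning the endothelial shares were 3.18%, 1.85%, 6.71% and 4.53%. Pan-endothelial markers summed to 9202, 8224, 10623 and 9867 CPM beside this, and the 8 arterial or capillary markers to 432, 740, 880 and 793 CPM, lowest in the non-irradiated control library, with Gja5 at 0 in both non-irradiated libraries. Among sinusoidal cells alone the Angpt2 irradiation ratios were 1.19 [0.81 to 1.60] and 1.18 [0.75 to 1.65].

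In LepR+ cells the Angpt2 level was 42.8, 38.1, 36.0 and 30.5 CPM, with intervals that overlapped between neighbours. The irradiation log2 ratios were -0.25 [-0.52 to 0.02] in controls and -0.31 [-0.82 to 0.15] with Vegfc deleted. Direction and call differed between ways of processing. The stricter naming, with only 49 and 17 irradiated cells, gave -0.62 and -0.996, past 1.5-fold. Thinning gave 0.51, the opposite direction, for the second, from 33 non-irradiated and 10 irradiated UMIs. With so few cells or UMIs, counting error was not told apart from an effect of the processing. LepR+ cells held 63.4%, 52.9%, 14.1% and 12.1% of all Angpt2 UMIs in kept cells, while endothelial cells held 8.48%, 13.8%, 69.4% and 60.0%. That exchange moved with the number of captured endothelial cells as well as with their level. Erythroid cells held 19.4%, 21.7%, 0.618% and 0.548% of Angpt2 UMIs, a larger share than endothelial cells in both non-irradiated libraries. Osteolineage cells held 5.21% and 7.12% in the irradiated libraries. Pericytes or smooth muscle cells had 37.4, 42.7, 99.5 and 133 CPM, from only 7 to 18 cells and 7 to 16 UMIs per library. In a non-sinusoidal endothelial cluster led by Ly6c1 and Gpihbp1, the irradiated control library had 63.1 [46.9 to 83.2] CPM in 63 cells. Those 50 UMIs came from only 7 cells (11.1%), against 29.3% of sinusoidal cells with a UMI in that library. The interval does not cover such uneven spread between cells. Erythroid cells had 5.28, 3.53, 1.35 and 0.676 CPM of Angpt2, and the overlapping gene Mcph1 stood at 42.4, 37.2, 30.6 and 29.4 CPM there. Mcph1 was at 7.60, 7.08, 10.1 and 13.2 CPM in endothelial cells and at 9.03, 9.01, 9.91 and 13.9 CPM in LepR+ cells. The part of Mcph1 reads in the Angpt2 counts was not tested.

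**Figure D3:**
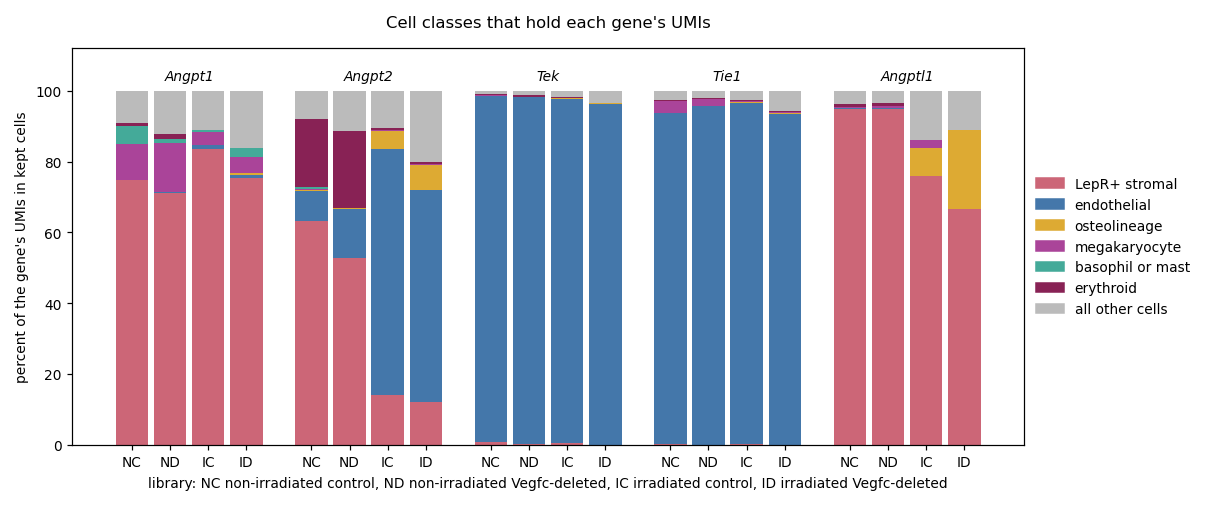
Percent of each gene's UMIs in kept cells (vertical axis) that fall in each cell class, by library. LepR+ stromal cells give way to endothelial cells as the larger holder of Angpt2 UMIs in the irradiated libraries, at 14.1% and 12.1% against 69.4% and 60.0%, while Tek and Tie1 UMIs are over 93% endothelial in all 4 libraries.

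Tek, the angiopoietin receptor, was an endothelial transcript and stood lower after irradiation. Endothelial cells held 97.8%, 98.2%, 97.2% and 96.4% of its UMIs. Its level there was 308 [289 to 328], 307 [290 to 325], 211 [204 to 218] and 200 [189 to 211] CPM. The 2 genotypes had overlapping intervals in each condition, and both irradiated libraries lay below both non-irradiated ones. The irradiation log2 ratio was -0.55 [-0.65 to -0.44] in controls, short of 1.5-fold, and -0.62 [-0.74 to -0.50] with Vegfc deleted, past it. Both calls lie at the edge of 1.5-fold. The first was past it with TMM scaling (trimmed mean of M values, -0.69) and with a per-cell marker gate (-0.60), and the second was short of it without doublet removal (-0.53), after thinning (-0.48), with a 5% mitochondrial limit (-0.57) and as a mean over cells (-0.58). The genotype log2 ratios were 0.00 [-0.13 to 0.12] without and -0.08 [-0.17 to 0.02] with irradiation. Among sinusoidal cells alone the irradiation ratios were -0.52 and -0.62. Tek was found in 89.0%, 86.5%, 79.5% and 70.9% of endothelial cells, and in 36.9%, 36.1%, 26.9% and 25.8% after thinning. In LepR+ cells it stood at 0.873, 0.483, 4.05 and 0 CPM, beside the endothelial cadherin gene Cdh5 at 1.16, 0.966, 11.7 and 1.39 CPM.

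Tie1, the second receptor gene, differed little between libraries in endothelial cells. The values were 223 [207 to 241], 225 [210 to 241], 230 [223 to 238] and 210 [199 to 222] CPM. All intervals overlapped, except those of the 2 irradiated libraries with each other. The irradiation log2 ratios were 0.04 [-0.07 to 0.16] and -0.10 [-0.22 to 0.03], and the genotype log2 ratios 0.01 [-0.14 to 0.16] and -0.13 [-0.22 to -0.04]. With TMM scaling the first turned to -0.10, so its sign depends on the scaling. Endothelial cells held 93.6%, 95.7%, 96.4% and 93.4% of Tie1 UMIs. Small numbers of UMIs came from megakaryocytes, at 25.6, 17.8, 7.71 and 11.95 CPM (25, 18, 12 and 4 UMIs, the first 25 from 5 cells). Pericytes or smooth muscle cells had 60.8, 18.3, 68.4 and 117 CPM of Tie1, from 13, 3, 11 and 7 UMIs in 18, 16, 15 and 7 cells. The neutrophil lineage held 3, 10, 36 and 52 Tie1 UMIs, at 1.01, 1.16, 14.5 and 2.60 CPM.

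The share of Tek among the summed Tek and Tie1 UMIs of endothelial cells was 58.0% [55.6 to 60.4], 57.7% [55.6 to 59.9], 47.8% [46.7 to 48.9] and 48.8% [46.8 to 50.7]. The non-irradiated and irradiated intervals did not overlap, whatever the scaling, since both genes come from the same cells. UMIs of the 2 genes are not captured equally, so the share shows a shift between libraries and no order of abundance. In sinusoidal cells the shares were 58.3%, 58.9%, 48.9% and 49.4%. The non-sinusoidal cluster had higher Tie1 than the sinusoidal clusters in all 4 libraries, at 512, 393, 399 and 353 CPM against 218, 216, 222 and 206 CPM, with 6, 20, 63 and 18 cells. Its Tek level was 480, 259, 172 and 140 CPM. Most endothelial cells carried both receptors, 75.2%, 72.9%, 69.6% and 54.3%, and 96.2%, 96.6%, 93.0% and 87.7% carried at least 1. At equal depth 10.2%, 11.3%, 7.92% and 6.58% carried both, against 9.77%, 11.5%, 7.53% and 7.68% if the 2 were detected independently.

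Angptl1 showed the largest irradiation differences among the 3 members that met the minimum of 30 counts in LepR+ cells. Its level there was 138 [131 to 145], 119 [111 to 128], 14.9 [11.5 to 18.9] and 8.32 [4.30 to 14.5] CPM, from 1423, 740, 66 and 12 UMIs. Both irradiated libraries lay far below both non-irradiated ones, with log2 ratios of -3.21 [-3.59 to -2.86] in controls and -3.78 [-4.80 to -3.03] with Vegfc deleted. The genotype log2 ratios were -0.21 [-0.34 to -0.08] without irradiation and -0.79 [-1.86 to 0.06] with it. The last rests on 66 and 12 UMIs, and its interval includes 0. It was -0.13 after thinning, from 7 and 2 UMIs. Under the stricter naming, with 49 and 17 irradiated cells, it was 1.62, the other direction. Under that naming the irradiation ratios were -2.14 and -0.31, the second under 1.5-fold. The share of LepR+ cells with an Angptl1 UMI was 45.6%, 37.3%, 9.15% and 2.69%, and in the few irradiated control cells (22) that grouped with the non-irradiated cluster the level was 39.4 CPM. In erythroid cells the share was 0.645%, 0.339%, 0 of 511 and 0 of 340 cells (which allows up to 0.587% and 0.882%). LepR+ cells held 94.99%, 94.99%, 75.9% and 66.7% of all Angptl1 UMIs. The overlapping gene Ralgps2 stood at 8.83, 7.89, 3.38 and 4.85 CPM in these cells, and at 158, 248, 257 and 146 CPM in megakaryocytes, where Angptl1 was detected with few UMIs.

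Angpt1 and Angptl1 lay on opposite sides after irradiation within the same class. The share of Angpt1 among the UMIs of both was 62.2%, 66.8%, 97.8% and 98.3% in LepR+ cells. Both genes were detected in 34.9%, 30.1%, 8.93% and 2.69% of LepR+ cells. The LepR+ markers, by which the class was named, summed to 49396, 49952, 47174 and 39612 CPM. That they are abundant follows from the naming and is no separate sign of cell identity. Lepr itself was at 1831, 1898, 1608 and 1030 CPM, and Adipoq, the adiponectin gene, at 1785, 2363, 3141 and 3335 CPM.

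**Figure D4:**
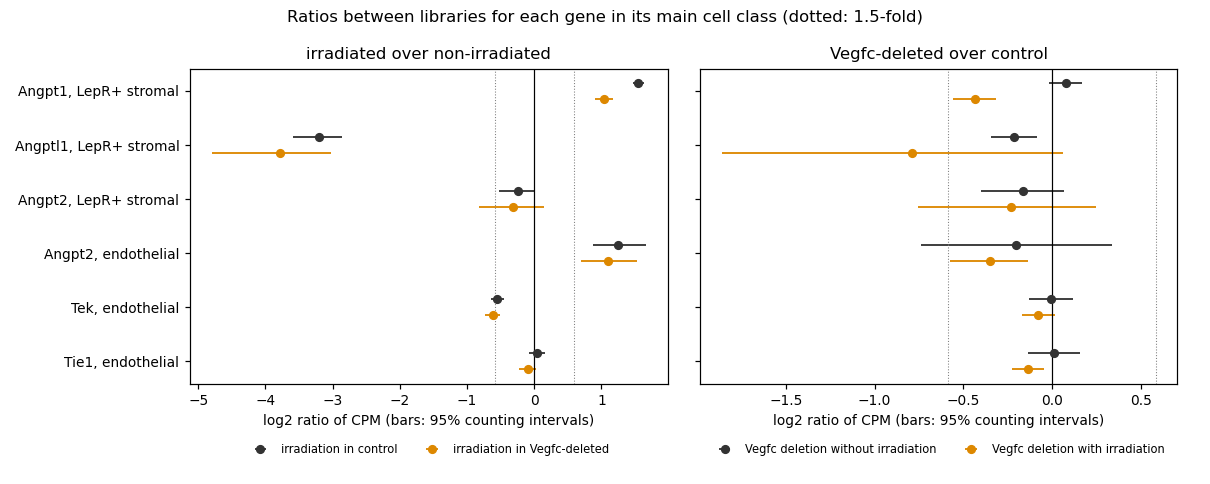
Log2 ratios of CPM (horizontal axis; bars are 95% counting intervals, dotted lines 1.5-fold) between irradiated and non-irradiated libraries (left) and between Vegfc-deleted and control libraries (right). Angpt1 lies to the right and Angptl1 to the left of 0 in both irradiation comparisons of LepR+ cells, and Tek lies to the left in endothelial cells while Tie1 stays near 0.

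The counts past 1.5-fold were set against all features. In the endothelial class, 4 members could be measured for irradiation in controls and 3 with Vegfc deleted. Angpt2 was called higher in both, where 18.6% and 15% of all features were higher, and Tek lower only with Vegfc deleted, where 7.33% were lower (7.55% in controls, where no member was lower). For Vegfc deletion no endothelial member was called, with 4.59% of features higher and 3.67% lower without irradiation and 3.11% and 6.28% with it. In the LepR+ class 3 members could be measured in each comparison. Angpt1 was called higher and Angptl1 lower in both irradiation comparisons, where 17.9% of features were higher and 10.4% lower in controls, and 18.8% and 12.7% with Vegfc deleted. For Vegfc deletion no LepR+ member was called without irradiation (background 2.28% higher and 4.66% lower), and Angptl1 was called lower with irradiation (background 8.86% higher and 11.8% lower). The median feature had an irradiation log2 ratio of 0.19 and 0.15 in endothelial cells and of 0.16 and 0.14 in LepR+ cells, and the ratios above are to be read relative to that shift. With TMM scaling the medians were 0.04 and 0.04 and -0.05 and -0.06. The share of higher among all calls then fell from 71.1% to 55.9% and from 67.2% to 53.6% in endothelial cells, and from 63.3% to 37.4% and from 59.7% to 38.2% in LepR+ cells.

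A list of 37 other genes of the Tie pathway was followed in the same sums. In endothelial cells 25 were measured for irradiation, of which 1 was higher (background 18.6% in controls and 15% with Vegfc deleted) and 2 lower (background 7.55% and 7.33%) in each genotype, with medians of 0.24 and 0.17 on the log2 scale against 0.19 and 0.15 over all features. Klf2, a flow-induced transcription factor of quiescent endothelium that Tek signalling is known to raise, stood at 1843, 1175, 767 and 435 CPM in endothelial cells. It was lower after irradiation (log2 ratios -1.27 [-1.31 to -1.22] and -1.43 [-1.50 to -1.37]) and lower with Vegfc deleted (-0.65 [-0.71 to -0.59] and -0.82 [-0.88 to -0.76]). Grb14, an adaptor that binds Tek, was lower (log2 ratios -1.76 [-2.51 to -0.95] and -2.14 [-3.27 to -1.19]), and Edn1, the endothelin-1 gene, was higher (2.62 [1.59 to 4.20] and 2.83 [1.66 to 4.63]), Grb14 from 12 to 40 UMIs per library and Edn1 from 6 and 5 UMIs before irradiation. Ptprb, the vascular phosphatase VE-PTP that dephosphorylates Tek, was at 792, 964, 876 and 914 CPM. Foxo1, the transcription factor that Tek signalling holds back through Akt and that can drive Angpt2, was at 115, 102, 126 and 107 CPM. Neither passed 1.5-fold, and none of the 6 membrane regulators did in endothelial cells. Of the 12 measured adaptors and kinases, Grb14 alone passed for irradiation, beside Pik3r1 in controls when TMM scaling was used. For Vegfc deletion 1 of 24 list genes was lower and none higher in endothelial cells without irradiation (background 3.67% and 4.59%), and 1 of 25 was higher and 1 lower with it (background 3.11% and 6.28%).

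In LepR+ cells 9 of 26 measured pathway genes were higher and 1 lower after irradiation in controls, and 6 of 25 were higher and 3 lower with Vegfc deleted. The background was 17.9% higher and 10.4% lower in controls, and 18.8% and 12.7% with Vegfc deleted. The list had medians of 0.37 and 0.33 against 0.16 and 0.14 over all features. Angpt4, a further Tek ligand gene, was at 14.2, 24.1, 45.7 and 44.4 CPM, with irradiation log2 ratios of 1.69 [1.38 to 2.01] and 0.88 [0.43 to 1.31]. A cluster between the osteolineage and LepR+ lists, which stayed outside both classes, had more Angpt4, at 150, 161, 207 and 156 CPM. Svep1, an extracellular matrix protein known to bind Tie1, was at 221.5, 190, 417 and 387 CPM in LepR+ cells (log2 ratios 0.91 [0.83 to 1.00] and 1.03 [0.88 to 1.18]). Adam17, a membrane protease that sheds receptors, was higher by log2 ratios of 0.94 [0.76 to 1.13] and 0.68 [0.36 to 0.99], the second under 1.5-fold with TMM scaling. Angptl4, an inhibitor of lipoprotein lipase, was at 350, 398, 730 and 824 CPM (1.06 [0.99 to 1.13] and 1.05 [0.95 to 1.15]). Klf2 was lower in LepR+ cells too, at 1237, 1119, 440 and 127 CPM. Cdh5, whose 12 and 52 UMIs passed 1.5-fold in the control comparison, marks endothelial cells and was at 1207 to 1446 CPM there in the same libraries. For Vegfc deletion 2 of 25 genes were higher and none lower in LepR+ cells without irradiation (background 2.28% and 4.66%), and 1 of 26 was higher and 4 lower with it (background 8.86% and 11.8%).

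**Figure D5:**
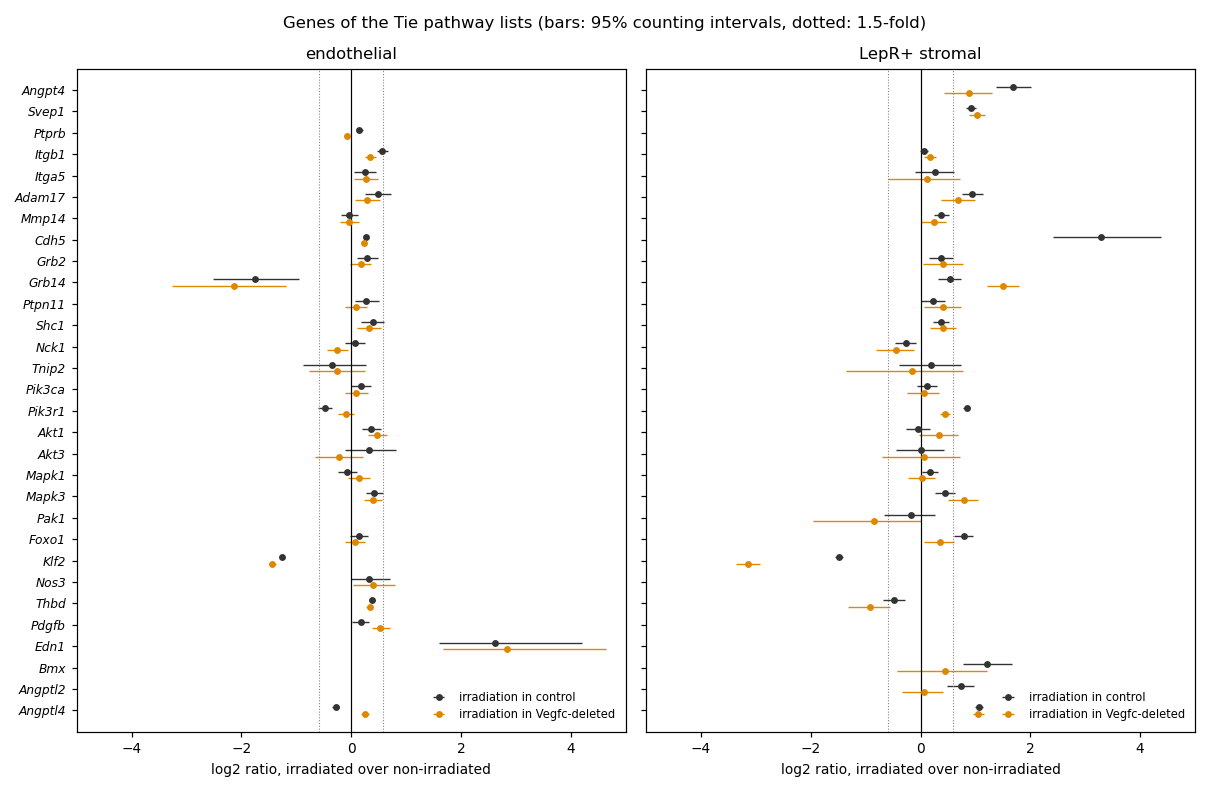
Irradiation log2 ratios (horizontal axis; bars are 95% counting intervals, dotted lines 1.5-fold) of the Tie pathway genes with at least 30 counts, in endothelial (left) and LepR+ stromal cells (right), in control (dark) and Vegfc-deleted (orange) libraries. Klf2 lies left of -1 in both classes and genotypes, and Svep1, Angpt4, Adam17 and Angptl4 lie right of 0 in LepR+ cells.

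Across 32 class-by-library sums of at least 50 cells, the 3 genes most like each member among 8050 were ranked by Pearson's r of log2(CPM + 1), as a description of sums that share libraries. Angpt1 was followed most closely by Arhgap6, Slc22a3 and Sntb1 (r = 0.92, 0.91 and 0.90), and Angpt2 by Tmem47, Sept4 and Parva (r = 0.95, 0.95 and 0.95). Tek was followed by Il13ra2, Nova2 and Hoxb8 (r = 0.99, 0.98 and 0.98), and Tie1 by Kdr, Plvap and Shank3 (r = 0.96, 0.96 and 0.96). Angptl1 was followed by Aldh3a1, Wisp2 and Kcne4 (r = 0.94, 0.94 and 0.94). Kdr, the VEGF receptor 2 gene, and Plvap were themselves on the pan-endothelial marker list.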

How the data were processed

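Dissociated tibial marrow was sequenced with the Chromium 3' kit v3.1, on a NovaSeq instrument, per the labels' protocols. The authors deposited UMI counts per gene and cell. Cell Ranger 2.1.1 and mm10 are named in the submitters' processing notes, while the matrix header names software 3.1.0. Annotation release, cell calling and use of strand: not given in the sources used here. Library totals were 67370522, 77284922, 54462123 and 64282090 UMIs.

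Barcodes with at least 500 genes and at most 10% mitochondrial UMIs were kept, and doublets marked by Scrublet at 0.8% per 1000 barcodes (4.11% to 6.19% of barcodes) were removed. Cells of all libraries were clustered together with scanpy 1.11.5 (1995 variable genes, 40 components, 20 neighbours, Leiden resolution 1, 36 clusters), without the members and the pathway list among the clustering genes. A cluster was named where its best of 20 fixed marker lists scored at least 2 log2 units above the median cluster and 1.5 above the next list, with at least 3 markers detected and 1 among its 10 leading genes; these limits, and the rule that left clusters led by osteoclast or epithelial genes unnamed, were set after the clusters were seen. Counts were summed per class and library. Ratios add 0.5 counts to each sum, and their intervals are exact and conditional on the total. TMM factors came from edgeR 4.0.16. UMI counts of 1 library per group allow no test, and intervals cover counting error only. Intervals and calls were also run on simulated Poisson counts, the same model that the intervals use. Only genes with a pooled rate of at least 30 counts in the smaller library were simulated. Such counts hold no spread between mice, so they cannot show how the intervals cover it.

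Members and lists were chosen with earlier results of these data known. Besides the 5 members, the text names pathway genes past 1.5-fold in the same direction in both irradiation or both genotype comparisons of a class, with Ptprb, Foxo1 and Klf2 always, and the 3 genes most like each member; Cdh5 and the marker and overlapping genes were added after their values were seen. Alternatives covered doublets, resolution, a per-cell marker gate, thinning, TMM, per-cell means, a 5% mitochondrial limit, the clustering genes, sinusoidal cells alone, the count minimum and, added after seeing the data, a stricter naming rule.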

Additional observations from a re-analysis of the deposited data

Results flagged for a closer look

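Unnamed clusters, which belong to no class above but count in the shares of all UMIs in kept cells, held member UMIs. A cluster whose osteolineage score exceeded its LepR+ score by too little to be named (led by Postn, Dmp1, Col1a1 and Mmp13, 1.76%, 0.748%, 1.41% and 0.590% of kept cells) had 121 CPM of Angpt1, 28.6 CPM of Angpt2 and 17.2 CPM of Angptl1 over all libraries. By library its Angpt1 level was 191, 170, 71.9 and 25.7 CPM, lower in both irradiated libraries, from 54 and 24 irradiated cells. A cluster of 52 cells led by LepR+ genes with neutrophil RNA beside them (0.297%, 0%, 0.782% and 0.172% of kept cells) had 251 CPM of Angpt1 and 24.1 CPM of Angpt2. A cluster led by Car1 and Klf1, below the limit for an erythroid name, had 3.18 CPM of Angpt1 and 1.73 CPM of Angpt2.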

How the results depend on the processing

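No paired analysis was possible because each group had 1 library. For 24 log2 ratios of the members, 228 values were recomputed, of which 203 lay inside the reported interval and 25 outside it; 14 had the opposite sign, 13 of them for ratios within 1.5-fold as reported. Of 75 values for the 8 ratios past 1.5-fold, 67 stayed past it in the same direction, and 5 of 153 others passed it. Among 120 recomputed levels 86 lay inside their interval. The stricter naming rule, chosen after seeing the data, left fewer LepR+ cells (49 and 17 irradiated) and gave Angpt1 0.34 and 0.71 for irradiation and 0.45 for deletion with irradiation, Angptl1 -2.14, -0.31 and 1.62 (opposite in direction to a ratio past 1.5-fold), and Angpt2 -0.62 and -0.996 for irradiation. TMM gave Angpt1 1.34 and 0.84, Tek -0.69 and -0.74, and Tie1 -0.10 for irradiation in controls. The per-cell gate gave Angpt1 1.37 and 0.81. Thinning gave Angpt1 1.24 (irradiation with Vegfc deleted) and -0.27 (deletion with irradiation), Angptl1 -0.39 (deletion without irradiation), Angpt2 0.51 in LepR+ cells (irradiation with Vegfc deleted) and -0.76 in endothelial cells (deletion without irradiation), Tek -0.48 (irradiation with Vegfc deleted), and Tie1 0.26 and 0.011 for deletion without and with irradiation. Without doublet removal Tek was -0.40 for irradiation in controls, and the mean of per-cell CPM gave Angptl1 -0.36 for deletion without irradiation. The irradiated LepR+ cells left by the stricter naming lay in clusters of mostly non-irradiated cells, and the causes of these differences were not tested. With 1 count in each library as the only minimum, features past 1.5-fold for irradiation (controls, then Vegfc-deleted) and for deletion (without, then with irradiation) rose from 2982, 2254, 736 and 1074 to 4854, 4509, 2677 and 3228 in endothelial cells, and from 3171, 3205, 774 and 2041 to 5560, 5483, 2941 and 4171 in LepR+ cells. Pathway genes past it rose from 3, 3, 1 and 2 to 6, 6, 3 and 7 in endothelial cells, and in LepR+ cells from 10 to 16 (irradiation in controls) and from 2 to 7 (deletion without irradiation). Depth limited Angptl1 in irradiated LepR+ cells (66 and 12 UMIs) and all values in pericytes. Some thinned ratios rest on few UMIs too. For Angpt2 these were 33 and 10 in LepR+ cells (irradiation with Vegfc deleted) and 10 and 7 in endothelial cells (deletion without irradiation).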

Other observations

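Klf2 differed between genotypes in opposite directions by cell class. Megakaryocytes had 152, 789, 132 and 777 CPM of Klf2, with both Vegfc-deleted libraries above both control libraries, whereas endothelial cells had 1843, 1175, 767 and 435 CPM and LepR+ cells 1237, 1119, 440 and 127 CPM. With 1 library per group and 44 megakaryocytes in the last one, the difference between classes was not tested.

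Angpt1 and Angpt2 were detected together in 21.4%, 16.4%, 22.4% and 13.4% of LepR+ cells, against 19.3%, 14.3%, 19.8% and 10.4% if detection were independent; these shares were not matched for depth. After thinning they were 1.34%, 1.43%, 3.08% and 3.896%, against 1.504%, 1.15%, 2.88% and 2.99%. Tek and Angpt2 UMIs were found together in 12.9%, 9.90%, 23.5% and 12.4% of endothelial cells, against 12.6%, 10.6%, 22.7% and 12.4% if independent.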
